A study of Homo sapiens with 20 samples.

Results

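The transcripts described here are those that GENCODE types as nonsense-mediated decay (NMD) transcripts of protein-coding genes. They were chosen by annotation and by the count of their gene, with earlier results of these data known. A gene was kept when its summed estimated count was 200 or more in every sample. This left 7683 NMD transcripts in 3522 genes, of 73450 transcripts of any type in 7543 such genes and of 191106 transcripts matched in all. Of the 7683, 412 had no count in any sample, 4251 had a mean below 10 counts and 6 made up over 95% of their gene. The remaining 3426, in 2304 genes, were tested.

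NMD is a surveillance pathway that degrades mRNAs on which translation ends too early, in particular where an exon junction complex is still bound downstream of the stop codon. A transcript becomes a target when a poison exon, a retained or shifted splice site or a skipped exon puts a stop codon in front of a later exon junction. Many genes of splicing factors, the SR proteins above all, carry such exons and can lower their own output by including them. RNA-seq measures the steady-state level of a transcript, so faster production and slower decay of an NMD transcript cannot be told apart.

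The samples were RNA of NGP cells, 1 human neuroblastoma cell line grown in 6-well format, treated with nutlin-3 (8 µM of the racemic mixture, n = 10) or with ethanol as vehicle (n = 10). Nutlin-3 blocks MDM2, a ubiquitin ligase, by occupying its binding pocket. Stranded poly(A) libraries were sequenced as read pairs and kallisto assigned each pair to transcripts by its sequence. The study calls the replicates biological, and the labels do not say whether they were separate cultures, so p-values measure the spread between these samples.

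Depth lay between 14455476 and 19532971 estimated counts per sample in vehicle and between 15078051 and 17442895 in nutlin, of which the 7683 NMD transcripts took 437819 to 576730 and 464663 to 541511. No pair of samples held identical values. Markers of adrenergic neuroblastoma, the identity of NGP, were high in every sample, with MYCN at 2454.56 to 4054.25 CPM (counts scaled to a common library size), while the defining leukocyte markers CD3E and PTPRC were at or near 0 (at most 0.396 CPM). The share of counts on transcripts that could be matched to GENCODE was 96.7 to 96.8% in vehicle and 95.7 to 95.9% in nutlin, without overlap of the groups. Its part in the results was not tested.

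The following 8 sequences show how a transcript of this type comes to end early, in SR protein genes and in genes with large rises or falls described below. Each runs 5′ to 3′ within the exon that holds the stop, up to and including the annotated stop codon, which is in capitals. They were read from GENCODE release 44 on GRCh38. In the first 6, the stop lies outside the exons of the reference transcript of the gene (the MANE Select or else the Ensembl canonical transcript), as in a poison exon. In the last 2 it lies within the reference coding sequence and is read in another frame.

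Exon 4 of SRSF7-204 is 449 bases long and its first 28 bases, up to the end of the stop, lie at chr2:38749319-38749346 (- strand):
SRSF7-204: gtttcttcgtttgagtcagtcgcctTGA
Exon 4 of SRSF3-203 is 456 bases long and the stretch from its start to the end of the stop lies at chr6:36599821-36599854 (+ strand):
SRSF3-203: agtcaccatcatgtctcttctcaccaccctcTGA
Exon 3 of SRSF6-202 is 268 bases long and its last 150 bases up to the end of the stop lie at chr20:43459155-43459304 (+ strand):
SRSF6-202: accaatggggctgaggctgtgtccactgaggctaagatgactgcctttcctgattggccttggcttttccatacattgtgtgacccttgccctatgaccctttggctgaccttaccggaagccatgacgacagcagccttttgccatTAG
Exon 4 of SRSF4-205 is 175 bases long, with the stretch from its start to the end of the stop at chr1:29166009-29166064 (- strand):
SRSF4-205: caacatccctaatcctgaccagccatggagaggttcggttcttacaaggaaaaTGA
Exon 6 of SLC25A26-204 is 54 bases long, with the stretch from its start to the end of the stop at chr3:66356031-66356057 (+ strand):
SLC25A26-204: ggttggaagccatataactgctttTGA
Exon 7 of SULT4A1-202 is 127 bases long, with the stretch from its start to the end of the stop at chr22:43827600-43827640 (- strand):
SULT4A1-202: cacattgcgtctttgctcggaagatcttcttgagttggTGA
Exon 5 of MINK1-209 is 126 bases long, with the stretch from its start to the end of the stop at chr17:4881132-4881171 (+ strand):
MINK1-209: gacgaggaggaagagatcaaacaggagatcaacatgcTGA
Exon 3 of SOD2-215 is 117 bases long, with the stretch from its start to the end of the stop at chr6:159688173-159688242 (- strand):
SOD2-215: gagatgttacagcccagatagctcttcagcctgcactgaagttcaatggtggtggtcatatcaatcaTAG
These 8 stops lie between 86 bases (SULT4A1-202) and 3584 bases (MINK1-209) upstream of the last exon junction. Over the 3425 tested NMD transcripts with an annotated stop, the distance was 50 to 9568 bases, with a median of 451.

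NMD transcripts made up a small and slightly larger part of the RNA after nutlin. In the vehicle samples they held between 3.36% and 3.52% of the counts of the 7543 genes, with a median of 3.48%. In the nutlin samples they held between 3.66% and 3.79%, with a median of 3.74%. No nutlin sample reached down to a vehicle sample. The mean rose from 3.46% ± 0.0511 to 3.73% ± 0.0424 (SD, n = 10 each), a difference of 0.269 percentage points (two-sided permutation test, p = 6.0e-05, also after adjustment over 6 such measures). With each gene held at its mean weight, so that only shares within genes could move, the difference was 0.242 points (permutation test, p = 6.0e-05). On TPM, which divides each count by transcript length, it was 0.0747 points and missed the threshold (permutation test, p = 0.0719).

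The other transcript types of the same genes moved as well. Retained-intron transcripts rose from 5.55% ± 0.139 to 6.73% ± 0.193 of the counts (SD, n = 10; permutation test, p = 6.0e-05), and transcripts without a defined coding sequence from 2.17% ± 0.0265 to 2.53% ± 0.0247 (permutation test, p = 6.0e-05). Protein-coding transcripts fell from 88.7% ± 0.169 to 86.9% ± 0.223 (permutation test, p = 6.0e-05). The rise of the NMD transcripts was thus the smallest of the 3 that rose.

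**Figure D1:**
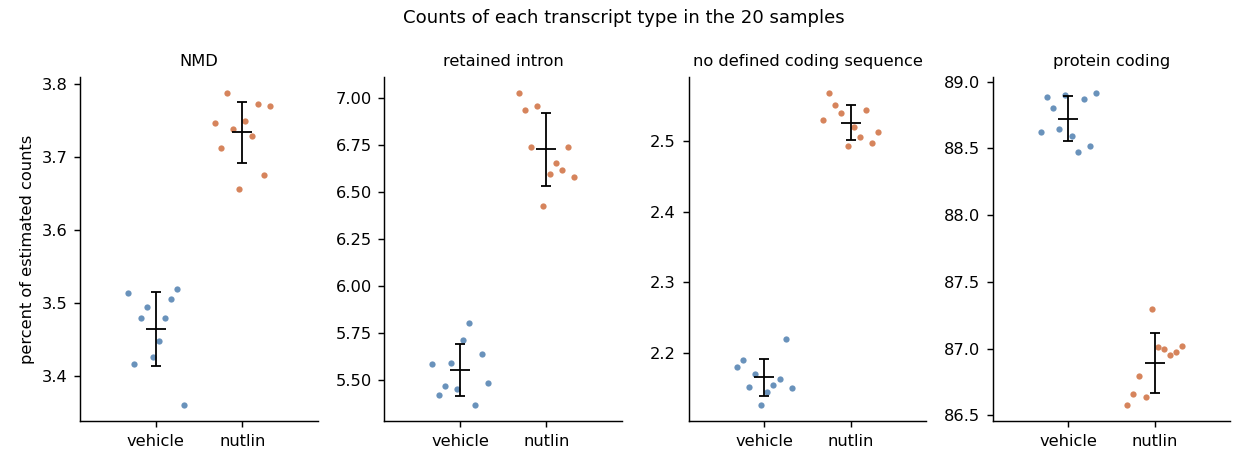
Percent of the estimated counts of the 7543 genes on each transcript type (vertical axes, which do not start at 0) in the 10 vehicle and 10 nutlin samples, 1 point per sample, with the mean and SD in black. In each of the 4 types the groups do not overlap: NMD, retained-intron and undefined transcripts are higher in nutlin and protein-coding transcripts lower.

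Most genes gave little of their RNA to NMD transcripts. By the mean over the vehicle samples, the median gene had 2.52% of its counts on them and the middle 50% of genes lay between 0.476% and 10.5%. In 1223 genes the share was under 1%, in 923 it was over 10% and in 104 over 50%. The median over genes rose from 2.31% ± 0.0989 in a vehicle sample to 3.23% ± 0.12 in a nutlin sample (SD, n = 10; permutation test, p = 6.0e-05). The counts were unevenly spread, since the 10 most abundant NMD transcripts held 11.9% of all their counts and the 100 most abundant 37.4%.

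Transcript by transcript, 621 NMD transcripts had a higher share of their gene in nutlin and 170 a lower one, with 2635 not called and 1118 at an unadjusted p under 0.05 (edgeR quasi-likelihood test on counts with the gene total as offset, 5% FDR over 37071 transcripts of all types). That is 18.1% higher and 4.96% lower. Over all transcripts tested, 17.3% were higher and 10.4% lower. The share of NMD transcripts called higher was thus near the background, and the share called lower was below it. The median log2 fold change of the share was 0.22 for NMD transcripts and 0.08 for all.

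Of the retained-intron transcripts, 25.4% were higher and 5.53% lower, with a median log2 fold change of 0.22. Transcripts without a defined coding sequence were higher in 22.6% and lower in 5.93%. Protein-coding transcripts were split evenly, with 13.0% higher and 13.9% lower and a median of 0.00. The groups did not overlap for 114 of the NMD transcripts called higher and for 30 of those called lower, which is 3.33% and 0.876% of the 3426, against 4.01% and 2.35% of all transcripts.

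**Figure D2:**
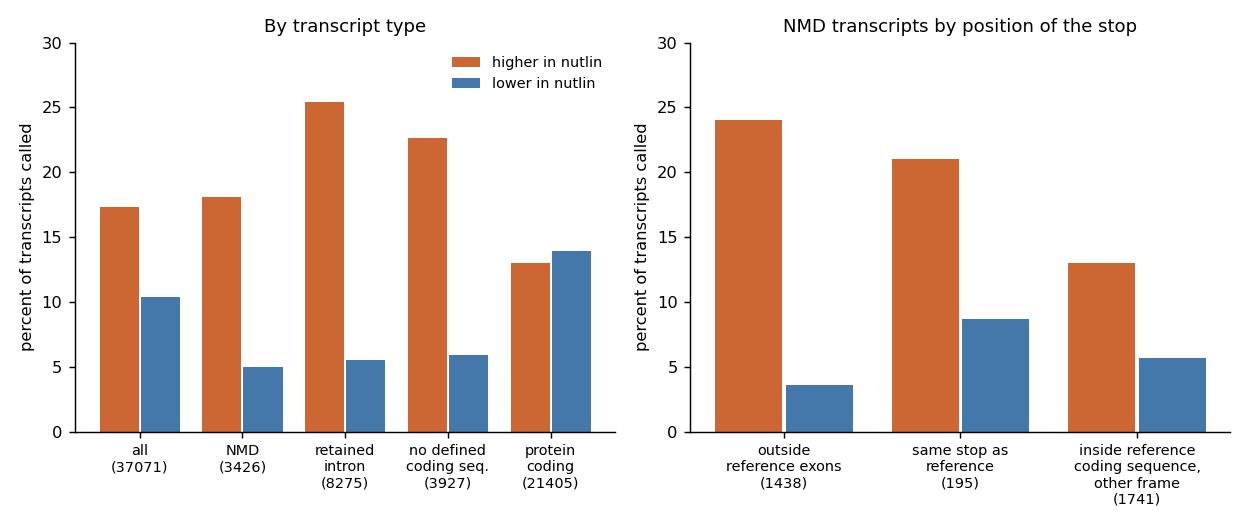
Percent of transcripts called higher or lower in nutlin in the share test (5% FDR), by transcript type on the left and, for NMD transcripts, by the position of the stop on the right; numbers tested are in brackets. NMD transcripts reach 18.1% higher and 4.96% lower, and those with the stop outside the reference exons 24.1% and 3.62%.

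The share of calls differed with the position of the stop, which was described and not tested. Of 1438 NMD transcripts whose stop lay outside the exons of the reference transcript, as in a poison exon or a retained stretch of intron, 24.1% were higher and 3.62% lower, with a median log2 fold change of 0.34. Of 1741 with the stop inside the reference coding sequence in another frame, 13.0% were higher and 5.69% lower, with a median of 0.14. Of 195 that ended at the reference stop, with further exon junctions behind it, 21.0% were higher and 8.72% lower. The median mean count of these classes was 39.1, 43.9 and 70.8.

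Calls also moved with abundance and with how well a transcript can be told from its gene's other transcripts. Of 487 NMD transcripts with a mean of 200 or more counts, 22.2% were higher and 15% lower, and of 1869 with 10 to 50 counts, 15.8% were higher and 1.98% lower. Of the 65 that made up 50% or more of their gene, 2 were higher and 19 lower. Of 1471 with at least 50 stretches of 31 bases found in no other quantified transcript of the gene, 25.9% were higher and 4.42% lower, against 13.5% and 4.27% of 702 with none. For those 702, every such stretch was shared, and the split of reads between transcripts rests on the model of kallisto. They include SRSF7-204, SRSF7-208, SRSF1-204, SRSF2-204, SRSF2-208, SRSF5-211, TRA2B-205, HNRNPDL-202, MDM2-204, MDM2-225, CAPRIN2-205 and RPL3-204, which are described below.

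Summed over the NMD transcripts of a gene, the share was higher in nutlin in 555 genes (23.1%) and lower in 131 (5.46%) of 2400 tested (edgeR, 5% FDR), with a median log2 fold change of 0.23. A share rises where the NMD transcript rises or where the rest of the gene falls. Of the 621 NMD transcripts with a higher share, 407 were also higher in level, 22 were lower and 192 were not called (edgeR on counts with TMM normalization, 5% FDR). Of the 170 with a lower share, 121 were lower in level and 13 higher.

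In level, 730 of the 3426 NMD transcripts were higher and 476 lower, which is 21.3% and 13.9%, against 22.3% and 21.0% of all transcripts tested. The genes themselves moved mainly down: of the 3522 genes, 768 were higher and 2234 lower in nutlin, with a median log2 fold change of -0.27. Over all 36016 genes tested, 27.9% were higher and 21.4% lower, but these include genes with few counts, unlike the 3522. Under the same minimum, genes that were lower held 13481 of the 21405 protein-coding transcripts tested and 2111 of the 3426 NMD transcripts. The protein-coding transcripts include those of genes with NMD transcripts, so genes without NMD transcripts were not compared. NMD transcripts of genes that were lower were called higher in share in 19%, and those of genes that were higher in 17.6%. For retained-intron transcripts the same figures were 32.3% and 15.1%.

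**Figure D3:**
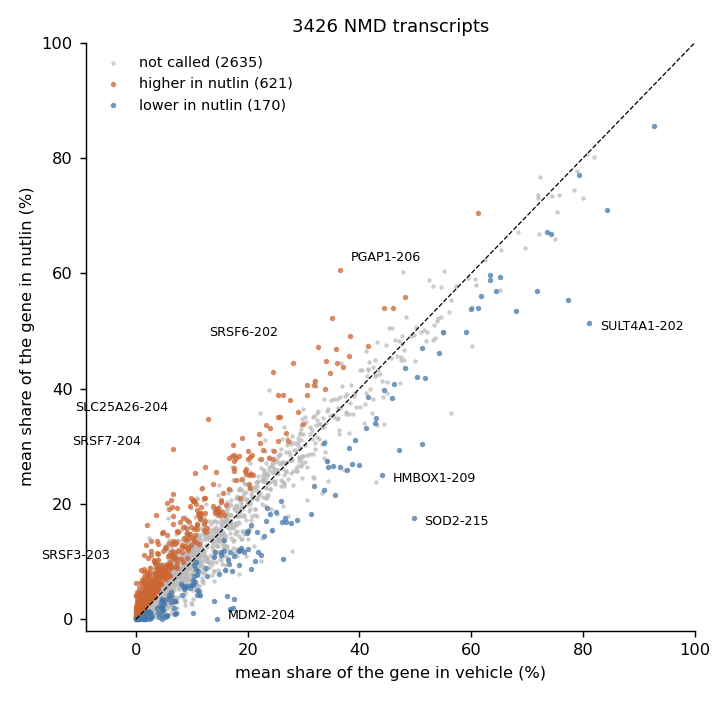
Mean share of the gene in vehicle (horizontal) and in nutlin (vertical) for the 3426 NMD transcripts tested, coloured by the share test, with the line of equal shares dashed. Most of the 621 called higher lie near the lower left corner, and of the 65 with a mean share of 50% or more, 2 are called higher and 19 lower.

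The SR proteins bind exons and recruit the splicing machinery. Of their 20 tested NMD transcripts, 12 were higher in share and 0 lower (edgeR, 5% FDR), all 20 had a positive log2 fold change and the median was 0.63. At an unadjusted p under 0.05, 16 were higher and 0 lower, and DESeq2 called 14 higher and 0 lower. Among all 3426 NMD transcripts the median was 0.22 and 18.1% were higher. Summed over the gene, 10 of 12 SR genes rose and none fell, beside 23.1% higher and 5.46% lower of the 2400 sums tested. The genes moved the other way, with 12 of 14 lower in level and 1 higher (SRSF8). Of the 3522 genes with an NMD transcript, 2234 were lower and 768 higher.

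SRSF7, which promotes exon inclusion and RNA export, had the largest change of the group in percentage points, and SRSF3 the largest by fold among those called. Its transcript SRSF7-204, which holds the 449-base exon 4 printed above, made up between 5.23% and 8.01% of the gene in vehicle (median 6.64%) and between 25.4% and 32.4% in nutlin (median 29.8%). All nutlin samples lay far above all vehicle samples. The log2 fold change of the share was 2.14 ± 0.0657 (SE, edgeR, adjusted p = 6.18e-15). SRSF7-208, a second NMD transcript of the gene, rose from 22.5% ± 0.981 to 27.8% ± 1.99 (SD, n = 10; edgeR, adjusted p = 3.53e-06), also without overlap. Together the NMD transcripts went from 29.7% ± 1.18 to 58.3% ± 1.81 of SRSF7.

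In level, the NMD transcripts of SRSF7 stood at 118 ± 10.3 CPM in vehicle and 128 ± 5.53 CPM in nutlin, while the rest of the gene went from 278 ± 16.9 to 91.4 ± 5.12 CPM. Within the gene, the protein-coding SRSF7-201 moved most in the opposite direction, from 28.5% ± 3.18 to 5.59% ± 1.72 of the counts. 

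SRSF3, the smallest SR protein, had its rise in 1 transcript. SRSF3-203, with the 456-base exon 4 printed above, went from between 1.02% and 2.79% (median 1.88%) to between 11.1% and 15.9% (median 12.7%), with no overlap. The log2 fold change was 2.82 ± 0.147 (SE, edgeR, adjusted p = 1.82e-11). Its level rose from 9.13 ± 2.27 to 36.0 ± 3.74 CPM, against a fall of the gene by 0.85 on the log2 scale. SRSF3-204 had 1.63% ± 0.689 and 2.55% ± 0.795 and did not pass (edgeR, adjusted p = 0.0807).

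SRSF6 has 2 quantified transcripts, so that a higher share of 1 is a lower share of the other. Of the 1650 stretches of 31 bases in SRSF6-202, 298 were absent from the other quantified transcript. For reads on the shared stretches, the split rests on the model of kallisto. SRSF6-202, whose exon 3 is printed above, held between 28.2% and 38.4% of the gene in vehicle (median 32.7%) and between 42.9% and 53.1% in nutlin (median 45.7%). All 10 nutlin samples were above all 10 vehicle samples, and the log2 fold change was 0.54 ± 0.059 (SE, edgeR, adjusted p = 7.96e-07). In level, SRSF6-202 went from 79.6 ± 6.87 to 92.0 ± 5.96 CPM and the protein-coding SRSF6-201 from 165 ± 15.1 to 103 ± 9.35 CPM.

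SRSF1 and SRSF2, which both act on exon enhancers, each had 1 NMD transcript that rose beside others that did not pass. SRSF1-204 went from 3.75% ± 0.918 to 11.4% ± 1.95 of its gene (SD, n = 10) and SRSF2-204 from 4.67% ± 1.33 to 14.9% ± 1.40, both without overlap of the groups (edgeR, adjusted p = 3.06e-08 and 4.73e-08). SRSF1-207 stood at 5.76% ± 0.876 and 6.12% ± 0.945 and SRSF2-208 at 17.1% ± 3.35 and 18.1% ± 1.49. The rest of SRSF2 fell from 458 ± 26.9 to 176 ± 6.98 CPM, the steepest fall among these genes after SRSF7.

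The remaining SR genes moved less. SRSF4-205, with its exon 4 printed above, rose from 2.38% ± 0.371 to 4.54% ± 0.465 (log2 fold change 0.93 ± 0.0964, edgeR, adjusted p = 3.68e-07), and SRSF10-215 from 1.90% ± 0.304 to 3.06% ± 0.644 (edgeR, adjusted p = 2.65e-04), both without overlap. SRSF5-211 rose from 20.2% ± 1.59 to 25.1% ± 1.53 and TRA2B-205 from 29.9% ± 3.22 to 33.9% ± 2.72 with overlapping groups (edgeR, adjusted p = 2.07e-05 and 0.0261). TRA2B-205 fell in level, from 97.2 ± 10.4 to 57.9 ± 5.69 CPM, more slowly than the rest of TRA2B. TRA2A-203 and SRSF9-206 did not pass, at 0.904% ± 0.556 and 1.01% ± 0.497, and at 0.167% ± 0.255 and 0.761% ± 0.535.

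**Figure D4:**
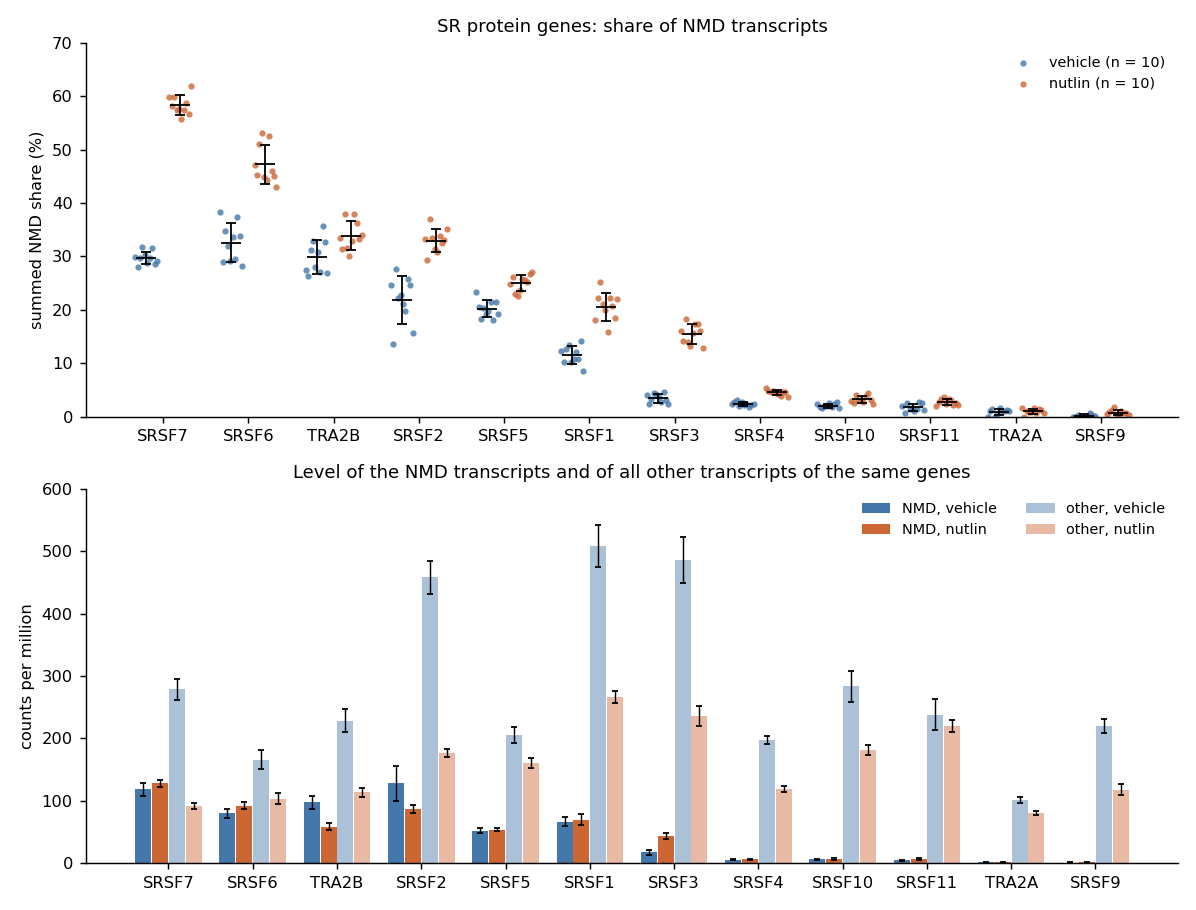
Upper panel, summed share of the NMD transcripts in 12 SR protein genes, 1 point per sample with the mean and SD. Lower panel, mean level in CPM with SD of the NMD transcripts and of all other transcripts of the same genes. The shares of SRSF7, SRSF6, SRSF2, SRSF1 and SRSF3 do not overlap between the groups, and in each of these genes the level of the other transcripts is lower in nutlin.

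The hnRNP proteins bind nascent RNA, often against the SR proteins. Of their 23 tested NMD transcripts, 10 rose and 1 fell in share (edgeR, 5% FDR), with a median log2 fold change of 0.45, beside 18.1% higher and 4.96% lower of all NMD transcripts. In level, 2 were higher and 5 lower, beside 21.3% and 13.9% of all NMD transcripts. Of the genes, 23 of 24 fell in level and 1 rose. Of the 3522 genes with an NMD transcript, 2234 were lower and 768 higher. HNRNPDL-202 made up between 2.77% and 4.69% of HNRNPDL in vehicle (median 3.48%) and between 13.9% and 20.6% in nutlin (median 18.6%), with a log2 fold change of 2.33 ± 0.107 (SE, edgeR, adjusted p = 3.26e-12). Its stop is that of the reference transcript and lies 127 bases upstream of the last junction, while its coding sequence is shorter, at 903 bases against 1260. Its level rose from 23.5 ± 4.89 to 66.6 ± 8.69 CPM, and the protein-coding HNRNPDL-206 fell from 54.2% ± 3.29 to 33.6% ± 3.83 of the gene.

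Elsewhere in the group, the summed share of HNRNPD went from 1.76% ± 0.339 to 4.34% ± 0.776 and that of HNRNPL from 3.13% ± 0.669 to 5.51% ± 1.02 (edgeR, adjusted p = 1.50e-07 and 8.61e-05). The level of these NMD transcripts hardly differed between the groups, at 9.97 ± 1.96 and 9.79 ± 1.90 CPM for HNRNPD. HNRNPA1-205, by count the largest NMD transcript of the group, stood at 23.3% ± 1.81 and 24.5% ± 1.64 (edgeR, adjusted p = 0.289). HNRNPH1 had members on both sides, with HNRNPH1-211 higher and HNRNPH1-218 lower in share (edgeR, adjusted p = 0.00422 and 0.00339).

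Among other regulators of splicing, 9 of 27 NMD transcripts rose and 3 fell in share (edgeR, 5% FDR), with a median log2 fold change of 0.30, beside 18.1% higher and 4.96% lower of all NMD transcripts. On TPM shares, 5 were higher and 3 lower (limma). SNRPB-203, from the gene of a core spliceosomal protein, rose from 1.17% ± 0.343 to 3.36% ± 0.555, and SNRNP70-202, from that of a U1 snRNP protein, from 20.2% ± 1.45 to 27.7% ± 1.32, both without overlap (edgeR, adjusted p = 4.24e-07 and 1.80e-08). U2AF2-207, of the factor that binds the polypyrimidine tract, rose from 3.8% ± 0.502 to 6.10% ± 0.463 (edgeR, adjusted p = 7.94e-07). The 3 that fell were CLK1-204, CLK3-225 and DDX5-218. CLK1 and CLK3 encode kinases of SR proteins, and CLK1-204 went from 18.4% ± 6.30 to 9.35% ± 2.07 (edgeR, adjusted p = 0.00113). MBNL2-206, in a gene whose lowest count of 200 lies just inside the rule, went from 24.5% ± 5.37 to 42.9% ± 6.17. The gene just outside it, CLUAP1 at 199.831, had 8.91% and 6.15%.

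The genes of the NMD machinery did not move one way. Over all genes tested, 27.9% were higher and 21.4% lower, and of the 3522 genes with an NMD transcript 768 and 2234. Of 15 genes of core NMD factors, 6 were higher, among them UPF3A (log2 fold change 0.58), SMG9 and SMG1, and 6 were lower, among them RUVBL2 (-0.83) and UPF3B (-0.51) (edgeR, 5% FDR). UPF1, the helicase at the centre of the pathway, stood at 139.8 ± 7.22 CPM in vehicle and 139.4 ± 6.18 CPM in nutlin. Of 9 genes of the exon junction complex, 8 were lower and none higher, with MAGOH and MAGOHB falling by 1.18 and 1.37 on the log2 scale. Of 4 genes of translation termination, 3 were lower, and of 11 of decapping, deadenylation and 5′ to 3′ decay, 3 were higher and 6 lower.

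Their own NMD transcripts were few, and of all NMD transcripts tested 18.1% were higher and 4.96% lower in share. RUVBL1-208 rose from 2.60% ± 0.508 to 5.14% ± 0.538 (edgeR, adjusted p = 9.39e-07) and was the 1 of 6 tested in core NMD factors that passed, with none lower. ACIN1-206, of an exon junction complex protein, rose from 17.5% ± 0.918 to 26.2% ± 1.25 of its gene (log2 fold change 0.58 ± 0.0323, edgeR, adjusted p = 5.21e-11), without overlap. With CASC3-205, it made 2 of 5 NMD transcripts of the exon junction complex that rose, against 1 on TPM shares (limma). PABPC4-210, of a poly(A)-binding protein, was the 1 of 2 that rose in termination, and none of 3 in decapping and deadenylation passed. In these 4 lists none was lower, and in decapping and deadenylation none was higher, at an unadjusted p under 0.05 or by DESeq2 or limma.

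Genes whose normal transcript, coding or not, is known to be an NMD substrate were read at the gene level. Of 11, 10 were higher in nutlin and TBL2 was lower (edgeR, 5% FDR), with a median log2 fold change of 0.96, beside 27.9% higher and 21.4% lower of all genes. ATF3, DDIT3 and GADD45A, which respond to cell stress, rose by 4.89, 2.23 and 2.82 on the log2 scale, and the snoRNA hosts GAS5 and ZFAS1 by 0.96 and 0.97. Whether production or decay of these transcripts moved was not tested. The 3 NMD transcripts tested in this list, all of TBL2, did not pass, nor did any at an unadjusted p under 0.05 or by DESeq2 or limma.

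The ribosomal proteins, several of which control their own splicing, had 11 of 41 NMD transcripts higher in share and none lower, with a median log2 fold change of 0.15, below the 0.22 of all NMD transcripts, of which 18.1% were higher and 4.96% lower. None was lower at an unadjusted p under 0.05 or by DESeq2 or limma. Of 85 genes, 58 were higher in level and 4 lower, beside 27.9% and 21.4% of all genes. RPS9-206 rose from 1.65% ± 0.204 to 3.29% ± 0.296 and RPL13A-214 from 0.600% ± 0.0969 to 1.32% ± 0.135, both without overlap (edgeR, adjusted p = 2.00e-09 and 2.99e-09). RPLP0-214, with 6065 counts on average, rose from 10.4% ± 2.59 to 15.6% ± 2.54 with overlap (edgeR, adjusted p = 0.00214). RPL3-204, a known target of its own protein, stood at 0.808% ± 0.220 and 1.03% ± 0.225 (edgeR, adjusted p = 0.101).

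Among genes known to be induced by nutlin, the NMD share of MDM2 fell while its level rose. Of 13 NMD transcripts tested, 5 were lower in share (4 of MDM2 and DDB2-213), none was higher and 8 were not called, and all 13 were higher in level (edgeR, 5% FDR), with all 29 listed genes higher. At an unadjusted p under 0.05, 2 were higher in share, with 1 called higher by DESeq2 and 2 by limma. Over all NMD transcripts tested, 18.1% were higher and 4.96% lower in share, and 21.3% were higher in level. Of all genes tested, 27.9% were higher. MDM2, which encodes the target of nutlin, rose by 4.49 on the log2 scale. MDM2-204 made up between 9.77% and 20.5% of it in vehicle (median 13.3%) and between 2.42% and 3.8% in nutlin (median 3.14%), a log2 fold change of -2.15 ± 0.131 (SE, edgeR, adjusted p = 1.87e-10), without overlap. Its level nevertheless rose from 32.4 ± 7.75 to 165 ± 18.7 CPM. MDM2-204 shares all its stretches of 31 bases with other transcripts of MDM2. Over its 9 NMD transcripts, MDM2 went from 29.2% ± 5.03 to 9.77% ± 0.773. DDB2, which encodes a DNA damage recognition protein, went the other way in sum, from 10.6% ± 4.18 to 15.2% ± 1.97 (edgeR, adjusted p = 0.0311). On TPM shares the fall of MDM2-213, from 9.62% ± 2.33 to 5.47% ± 0.446, missed the threshold (log2 fold change -0.36, limma). PPM1D-202, in a phosphatase gene, held 32.2% ± 8.55 and 40.4% ± 4.17 (edgeR, adjusted p = 0.0612).

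Cell cycle genes all fell, 32 of 32, and so did the level of 5 of their 7 tested NMD transcripts. Of the 3522 genes with an NMD transcript, 2234 were lower. Over all NMD transcripts tested, 13.9% were lower in level, and 18.1% were higher and 4.96% lower in share. BIRC5-208, of the inhibitor of apoptosis survivin, was the 1 of 7 with a higher share, at 2.39% ± 0.428 and 4.56% ± 1.60 (edgeR, adjusted p = 6.36e-04). Summed over the gene, RRM1, of a ribonucleotide reductase subunit, also rose, from 1.40% ± 0.554 to 3.87% ± 1.97 (edgeR, adjusted p = 0.00162). Of 5 NMD transcripts in adrenergic marker genes 1 was lower, TH-201, and of 10 such genes 4 were higher and 5 lower. No mesenchymal or leukocyte marker gene held an NMD transcript that met the rule. Of their genes, 1 of 6 mesenchymal markers was higher and 2 lower, and 2 of 3 leukocyte markers were higher, CD68 and LYZ, at no more than 5.95 CPM in any sample. Their part in the results was not tested.

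Over all genes, 108 NMD transcripts in 101 genes were called, did not overlap between groups and had a mean of 50 or more counts, 82 of them higher and 26 lower. The largest rise in points was that of PGAP1-206, from a gene whose enzyme remodels GPI anchors. It went from between 26.7% and 46.0% (median 36.6%) to between 54.4% and 65.3% (median 61.3%), and its log2 fold change was 0.73 ± 0.0757 (SE, edgeR). The level of PGAP1-206 rose from 33.4 ± 8.56 to 71.3 ± 8.57 CPM, while the protein-coding PGAP1-201 fell from 49.7% ± 4.51 to 29.97% ± 3.42 of the gene. PGAP1-206 has 26 stretches of 31 bases of its own.

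SLC25A26-204, of the mitochondrial carrier of S-adenosylmethionine, went from between 8.66% and 16.5% (median 13.0%) to between 23.9% and 41.0% (median 35.4%), with a log2 fold change of 1.43 ± 0.119 (SE, edgeR). It differs from the other transcripts of its gene by 2882 stretches of 31 bases. MINK1-209, of a kinase of the Ste20 family, went from between 0 and 4.06% (median 1.81%) to between 12.5% and 21.2% (median 16.01%), a log2 fold change of 3.02 ± 0.413. The MINK1 gene rose as well, by 1.22 on the log2 scale. PCDH17-202, of a protocadherin, went from 6.36% ± 4.10 to 20.7% ± 4.32, with the lowest nutlin sample, 14.8%, only just above the highest vehicle sample, 14.7%.

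By fold, DIP2B-203, NREP-222, DDX3X-206 and NASP-206 rose most. NREP-222 went from 0.400% ± 0.0774 to 4.15% ± 0.489 (log2 fold change 3.37 ± 0.121, SE), with 3121 stretches of its own. DIP2B-203 and DDX3X-206, with 27 and 73 such stretches, had a median of 0 in vehicle and 5.05% and 4.34% in nutlin. NASP, which encodes a histone chaperone, fell by 1.95 on the log2 scale and had NMD transcripts that moved in opposite directions. NASP-206 went from 0.940% ± 0.832 to 8.50% ± 1.72, and NASP-204, with 57.4 to 163 counts in each vehicle sample, had none in nutlin. Set against 3 counts over the 10 nutlin samples, its share would be at least 98.0-fold lower, if reads were assigned without error. Both share all their stretches of 31 bases with other transcripts of NASP. Their counts thus rest on the model of kallisto, whose assignment error this limit does not cover.

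**Figure D5:**
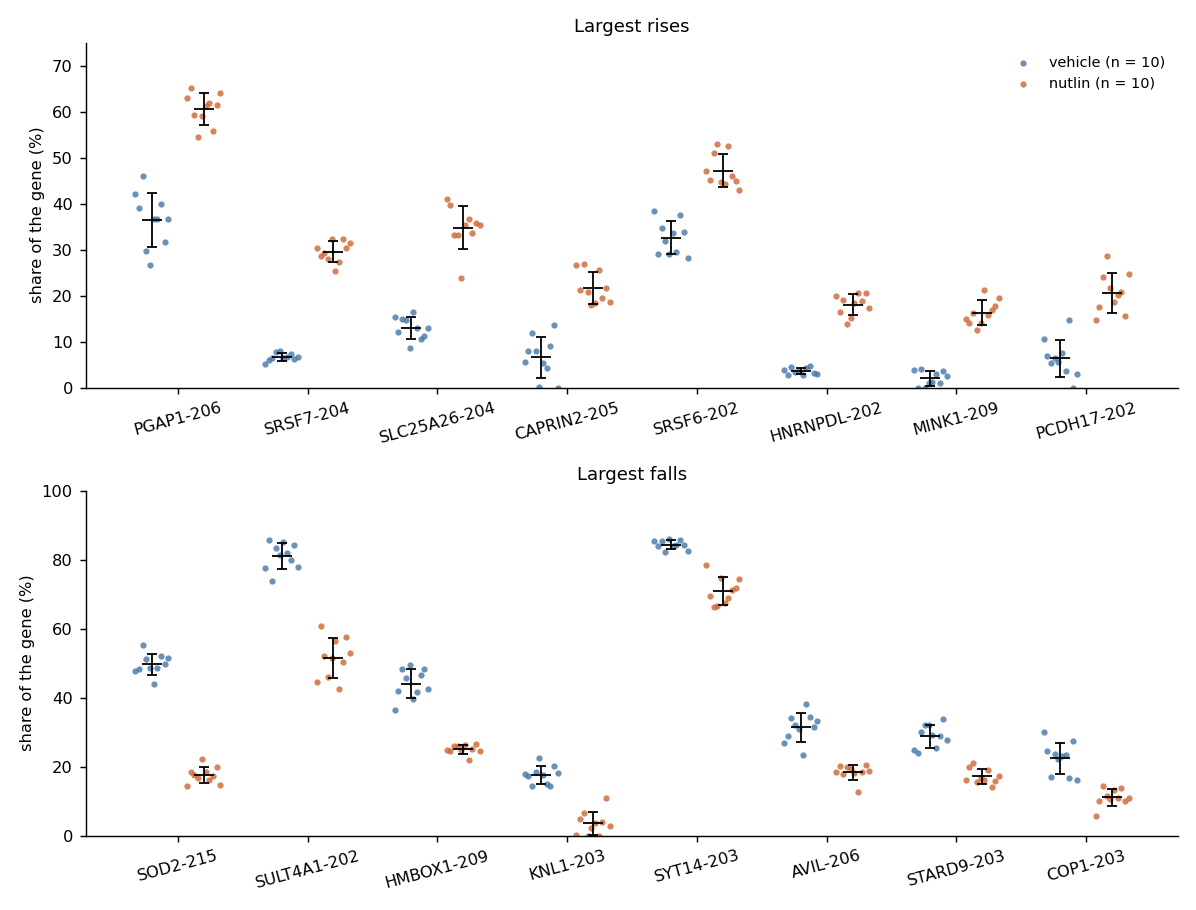
Share of the gene in each sample for the 8 NMD transcripts with the largest rise (upper panel) and the 8 with the largest fall (lower panel) in percentage points, with the mean and SD in black. The groups do not overlap for any of the 16, by the way they were chosen, and the gap is narrowest for PCDH17-202.

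The largest fall was that of SOD2-215, from the gene of mitochondrial superoxide dismutase. It made up between 43.97% and 55.1% of the gene in vehicle (median 49.2%) and between 14.3% and 22.2% in nutlin (median 17.4%), with no overlap and a log2 fold change of -1.50 ± 0.068 (SE, edgeR). Its level went from 30.8 ± 2.17 to 10.02 ± 1.46 CPM, and that of the rest of the gene from 31.4 ± 4.03 to 47.2 ± 2.87 CPM. The protein-coding SOD2-210 took up the share, from 38.8% ± 4.41 to 73.4% ± 1.96.

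SULT4A1-202, of a sulfotransferase of the nervous system, was the major transcript of its gene. It held between 73.8% and 85.7% in vehicle (median 81.7%) and between 42.5% and 60.8% in nutlin (median 51.9%), a log2 fold change of -0.66 ± 0.0565 (SE, edgeR). Its level did not pass the test, at 32.0 ± 2.75 and 28.6 ± 2.67 CPM (edgeR, adjusted p = 0.766), and the other transcripts rose from 7.43 ± 1.35 to 27.2 ± 4.53 CPM. The protein-coding SULT4A1-201 went from 5.31% ± 4.60 to 37.3% ± 9.33 of the gene. SYT14-203, of a synaptotagmin, likewise fell from 84.3% ± 1.26 to 70.9% ± 3.98 with its level at 36.7 ± 8.35 and 36.6 ± 3.83 CPM.

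Of the other large falls, HMBOX1-209 went from 44.04% ± 4.29 to 25.04% ± 1.29, AVIL-206 from 31.3% ± 4.16 to 18.3% ± 2.18, STARD9-203 from 28.8% ± 3.34 to 17.1% ± 2.19 and COP1-203 from 22.3% ± 4.59 to 11.1% ± 2.43. AVIL encodes advillin, an actin-binding protein, and COP1 a ubiquitin ligase. KNL1-203, of a kinetochore protein, fell from 17.5% ± 2.58 to 3.48% ± 3.37, and its gene fell by 2.08 on the log2 scale. By fold, DDX39A-202, MDM2-225 and EML5-204 fell most after NASP-204, with EML5-204 at 7.12% ± 1.42 and 1.14% ± 0.449.

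The transcripts that moved most in the opposite direction were also read. Shares within a gene are complementary, so some transcript had to move the other way. The largest such move was picked, and its call adds no separate support. Of the 37071 transcripts tested, 21405 were protein-coding, and protein-coding transcripts held 88.7% of the counts in vehicle. Of the 8 NMD transcripts with the largest fall in points, the transcript that gained most was protein-coding in all 8, and it passed the share test in 7, the exception being that of COP1. For HMBOX1-209 it took 9.36 points of the share. Among the large falls by fold, the transcript that gained most was a retained-intron one for DDX39A-202 (DDX39A-209) and an NMD one for NASP-204 (NASP-206). Of the 8 with the largest rise, the transcript that lost most was protein-coding in 7 and passed in all 8. In CAPRIN2 it was a second NMD transcript, CAPRIN2-216, which went from 26.7% ± 3.67 to 17.6% ± 3.57 while CAPRIN2-205 went from 6.60% ± 4.50 to 21.7% ± 3.45.

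CAPRIN2 and NASP were among the 20 genes with NMD transcripts called in both directions, of 700 genes with any called. The following pairs were chosen after their values were seen. In GTF3A, the gene of a transcription factor for 5S rRNA, GTF3A-202 fell from 8.71% ± 0.832 to 5.31% ± 0.857 and GTF3A-204 rose from 1.09% ± 0.229 to 2.46% ± 0.417, both without overlap. In IARS1, of isoleucyl-tRNA synthetase, IARS1-204 fell from 35.7% ± 7.52 to 21.6% ± 3.89 and IARS1-211 rose from 18.0% ± 2.14 to 27.9% ± 2.38.

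The 6 NMD transcripts with the highest mean share were not tested, since they made up over 95% of their genes. HNRNPUL2-BSCL2-201 and ATP6V1G2-DDX39B-201 are readthrough transcripts of neighbouring genes and held 100% and 99.9% of their entries, 3 belong to genes without a symbol, and LARS2-201 held 97.3% in vehicle and 96.8% in nutlin. Below that limit, TPM4-201, of a tropomyosin, was singled out after its values were seen, with 92.7% in vehicle and 85.6% in nutlin (edgeR, adjusted p = 1.59e-07).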

How the data were processed

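RNA of NGP cells treated with nutlin-3 (10 samples) or vehicle (10 samples) was measured by stranded poly(A) RNA-seq. The authors quantified the reads with kallisto 0.42.4 against Ensembl v85 transcripts on GRCh38 and deposited, for each sample and transcript, estimated counts and TPM (transcript abundance scaled by length and depth). The deposited transcript lengths were used only to compare annotations. Transcript types, gene names and exons came from GENCODE release 44, to which 191106 of 198968 transcript identifiers (96.0%) matched. Of the 3426 NMD transcripts tested, 278 had another length there.

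Estimated counts were rounded. A share is the count of a transcript over the summed count of its gene. Shares were tested with edgeR 4.0.16 (quasi-likelihood, gene total as offset, mean of 10 or more counts, share of at most 95%), with Benjamini-Hochberg adjustment over all 37071 transcripts. Levels used TMM normalization, and percentages per sample a permutation test with 100000 resamples, whose smallest p is 2e-05. Depth was 14455476 to 19532971 counts, and counts divided among transcripts carry an assignment error that these files do not give.

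The text names the 8 largest rises and falls in points and the 4 largest by fold in each direction (called, groups apart, mean of 50 or more counts), the 6 highest mean shares, and members of listed genes. GENCODE types, the lists and these rules were chosen with earlier results of these data known. Alternatives were DESeq2 1.42.0, limma 3.58.1 on log odds, other filters and minimums, TPM, a replicate block, 1% FDR and transcripts with their own sequence. Scripts ran in R 4.3.3 and Python 3.11.15 and were tested on simulated data.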

Additional observations from a re-analysis of the deposited data

Results flagged for a closer look

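Of 148 groups of 10 shares examined, 9 held a sample beyond Dixon's 95% critical value (0.466), and chance alone gives about 1 in 20. The value compared is the gap to the nearest neighbour divided by the range of the group. Among the large rises and falls, nutlin replicate 6 was low for SLC25A26-204 at 23.9% (nearest 33.2%), nutlin replicate 8 was low for HMBOX1-209 at 21.96% (nearest 24.5%) and for AVIL-206 at 12.7% (nearest 17.7%), and nutlin replicate 1 was low for COP1-203 at 5.69% (nearest 9.96%). DDX3X-206 reached 9.17% in nutlin replicate 4 (nearest 6.18%), and SRSF11-212 reached 3.23% there (nearest 2.47%). NASP-204 stood at 9.26e-06% in nutlin replicate 11 and at 0 in the other nutlin samples, which is below what 1 read could give. SRSF9-206, the 1 NMD transcript of SRSF9 and so also its sum, reached 0.740% in vehicle replicate 10 (nearest 0.394%). The groups of SLC25A26-204, HMBOX1-209, AVIL-206, COP1-203, DDX3X-206 and NASP-204 do not overlap by the way these transcripts were chosen. Those of SRSF11-212 and SRSF9-206, which were named without that condition, overlap.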

How the results depend on the processing

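The 0.269-point rise of the NMD share kept its direction under 6 alternatives (0.0747 to 0.308) and lost the call on TPM (0.0747, permutation test, p = 0.0719). The 621 NMD transcripts with a higher share became 343 with a mean of 50 or more counts, 395 at 1% FDR, and 342 or 381 among those with 50 or more stretches of their own (against annotated or quantified transcripts). The 170 lower became 105 at 1% FDR, and 56 or 65 among those with their own stretches. For sums, 555 higher became 369 at a mean of 50 and 356 at 1% FDR, and 131 lower became 82 at 1% FDR and 79 in genes with such a transcript. The 730 higher in level became 471 at a mean of 50. In these the number tested was smaller or the threshold stricter.

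Vehicle replicates were numbered 3 to 12 and nutlin replicates 1 to 11, with 8 numbers shared. The deviations of same-numbered samples correlated at -0.025 to 0.0168, so the numbers were not taken to pair samples. With the replicate block over those 16 samples, 369 NMD transcripts were higher and 111 lower, and 329 and 79 sums, against 488, 135, 433 and 101 in the same samples without it. The paired difference of the NMD share was 0.259 (exact sign-flip permutation test, p = 0.00781).

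Of 489 recomputed values of 56 named NMD transcripts, 464 kept direction and call, 17 lost the call, 6 gained it and 2 turned. The 2 were on TPM, MDM2-217 (3.24) and MDM2-227 (0.0031), and the cause was not tested. Counts of genes called by level in the SR protein and core NMD factor gene lists stayed within 1.5 times in 4 alternatives. On TPM shares the NMD transcripts called higher went from 9 to 5 in other splicing regulators and from 2 to 1 in the exon junction complex, and those called lower in nutlin-induced genes from 5 to 3. Depth limits NMD transcripts with few counts most.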
